A study of Mus musculus with 20 samples.

Results

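The genes described here encode collagens and other proteins of the extracellular matrix, the enzymes that cut that matrix and the inhibitors of those enzymes. They were chosen by the gene symbol annotated for each probe of the mouse bead array: every collagen chain, matrix metalloproteinase (MMP), tissue inhibitor of metalloproteinases (TIMP) and ADAMTS proteinase, and a named set of matrix glycoproteins and proteoglycans. The rule found 139 of 25697 probes, which stand for 93 of 16593 genes. Fn1 and Fbn1, which the rule also names, were not analysed here. Collagen chains without a probe under their own symbol, such as Col6a3, were not analysed either. The rule used gene symbols alone.

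Total RNA of gastrocnemius muscle and of liver was measured in male mice of strain B6N that carried 1 disrupted copy of Adck2 (Adck2+/-) and in wild type (WT) mice, with 5 arrays per genotype in each tissue. Adck2 encodes a mitochondrial protein of the aarF domain kinase family, and the study asked what the loss of 1 copy does to skeletal muscle and liver. The disrupted allele came from embryonic stem cells of a knockout consortium and was present in every cell, so no tissue was targeted. The labels give an age of 3 years for all mice, whereas the study's methods give an age in months, and no source used here says whether muscle and liver came from the same animals. Values are log2 signals after background correction and quantile normalization within a tissue. A gene was counted as measured in a tissue when 5 or more of its 10 arrays had a detection p under 0.05 for the probe, and called when its adjusted p was under 0.05.

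Adck2 itself had 1 probe, which was detected on 2 of 5 Adck2+/- and 1 of 5 WT arrays in muscle and on 3 of 5 Adck2+/- and 0 of 5 WT arrays in liver, so its level does not check the genotype labels. The tissue labels were borne out by marker genes. All 7 muscle fibre markers were detected in muscle and none of them on 5 or more liver arrays, while 4 of 6 hepatocyte markers on the array were detected in liver (Fgb was at background on every array). The arrays detected 11626 to 12604 probes in muscle and 11749 to 12493 in liver. The median SD of a matrix gene within a genotype was 0.25 in muscle and 0.32 in liver on the log2 scale, against 0.22 and 0.26 over all genes. In liver WT 3, Adck2+/- 1 and Adck2+/- 4 stood apart from the other arrays on the first principal component, which held 45.9% of the variance.

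In skeletal muscle each fibre sits in a sleeve of basement membrane, a sheet of laminin and collagen IV joined by nidogens and perlecan, and this sheet is anchored to the surrounding connective tissue by collagen VI. Fibrillar collagens give tendon and connective tissue their tensile strength, small proteoglycans such as decorin set the spacing of the fibrils, and lysyl oxidases crosslink collagen and elastin. MMPs and ADAMTS proteinases cut these proteins, and TIMPs hold the proteinases in check. In the liver most matrix is made by stellate cells and portal fibroblasts, apart from collagen XVIII, which hepatocytes also make. In whole tissue, fewer cells of a type and less RNA per cell cannot be told apart.

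The stretch of genome just before the start of a gene is shown for 3 of the 4 genes that fell in muscle and for Col6a1, the partner chain of Col6a2, so that the regulatory sequence of these genes can be read beside their values. Sequences are from RefSeq on build GRCm38.p6, on the strand of the gene, and end at the last base before its outermost annotated start. The windows are chr9:108479612-108479846 on the plus strand for Lamb2, chr10:76623631-76623880 on the minus strand for Col6a2, chr10:76726045-76726294 on the minus strand for Col6a1 and chr1:24177360-24177588 on the plus strand for Col9a1. Capitals mark a match to 1 of 3 promoter motifs searched on both strands: the GC box GGGCGG, the CCAAT box CCAAT and the TATA box TATAAA.
Lamb2: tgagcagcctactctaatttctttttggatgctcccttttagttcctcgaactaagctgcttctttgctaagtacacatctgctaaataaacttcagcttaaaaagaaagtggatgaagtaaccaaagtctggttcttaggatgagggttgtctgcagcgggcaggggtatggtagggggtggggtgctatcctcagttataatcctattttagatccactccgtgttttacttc
Col6a2: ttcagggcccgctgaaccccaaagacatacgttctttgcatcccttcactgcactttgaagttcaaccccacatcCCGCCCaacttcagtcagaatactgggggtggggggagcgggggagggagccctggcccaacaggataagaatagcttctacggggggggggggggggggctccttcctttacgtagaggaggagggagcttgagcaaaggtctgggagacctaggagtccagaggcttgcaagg
Col6a1: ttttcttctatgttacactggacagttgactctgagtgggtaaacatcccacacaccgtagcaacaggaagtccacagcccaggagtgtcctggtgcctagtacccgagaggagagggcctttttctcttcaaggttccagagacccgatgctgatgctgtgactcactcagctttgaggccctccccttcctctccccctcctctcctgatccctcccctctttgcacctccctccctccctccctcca
Col9a1: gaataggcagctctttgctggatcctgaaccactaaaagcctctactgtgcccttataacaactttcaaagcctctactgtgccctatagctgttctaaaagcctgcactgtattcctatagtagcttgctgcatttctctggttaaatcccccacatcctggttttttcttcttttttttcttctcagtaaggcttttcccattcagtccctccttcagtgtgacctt
The only match in these 4 windows was a GC box on the opposite strand before Col6a2. Over the 250 bases before the start, the GC box was present in 32.7%, the CCAAT box in 33.8% and the TATA box in 12.4% of all 32851 windows in the table, and in 34, 19 and 15 of the 66 matrix genes that had a window. The G and C content of the printed windows was 43% for Lamb2, 59.2% for Col6a2, 56% for Col6a1 and 43.2% for Col9a1. The window listed for Col15a1 lies inside its annotated gene and is not shown.

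Of the 93 matrix genes, 47 were measured in muscle and 39 in liver, 35 of them in both. Another 42 were measured in neither, of which 23 were below detection on all 20 arrays. The measured set held 16 of 37 collagen chains in each tissue. It lacked Col5a2, Postn, Thbs1 and Thbs4 in both tissues, and those genes were not tested here.

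In muscle, 4 of the 47 measured matrix genes fell in Adck2+/- mice and none rose. Over all 8424 genes tested, 0.653% fell and 1.23% rose. The 4 were the laminin chain Lamb2, the basement membrane collagen Col15a1, the collagen VI chain Col6a2 and the fibril-associated collagen Col9a1, and each was lower on all 5 Adck2+/- arrays than on any WT array. The 16 measured collagen chains had 3 of these calls, and 15 of them had a fold change below 0 on their brightest probe, with a median of -0.44 on the log2 scale. Over all 47 matrix genes the median was -0.22 and 35 were below 0, against a median of -0.01 and 52.2% below 0 over all genes tested. At an unadjusted p under 0.05, 18 matrix genes were lower and 3 higher, against 13.7% and 8.59% of all genes. These are counts of genes that share arrays and may move together, and no set of them was tested as a whole.

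**Figure D1:**
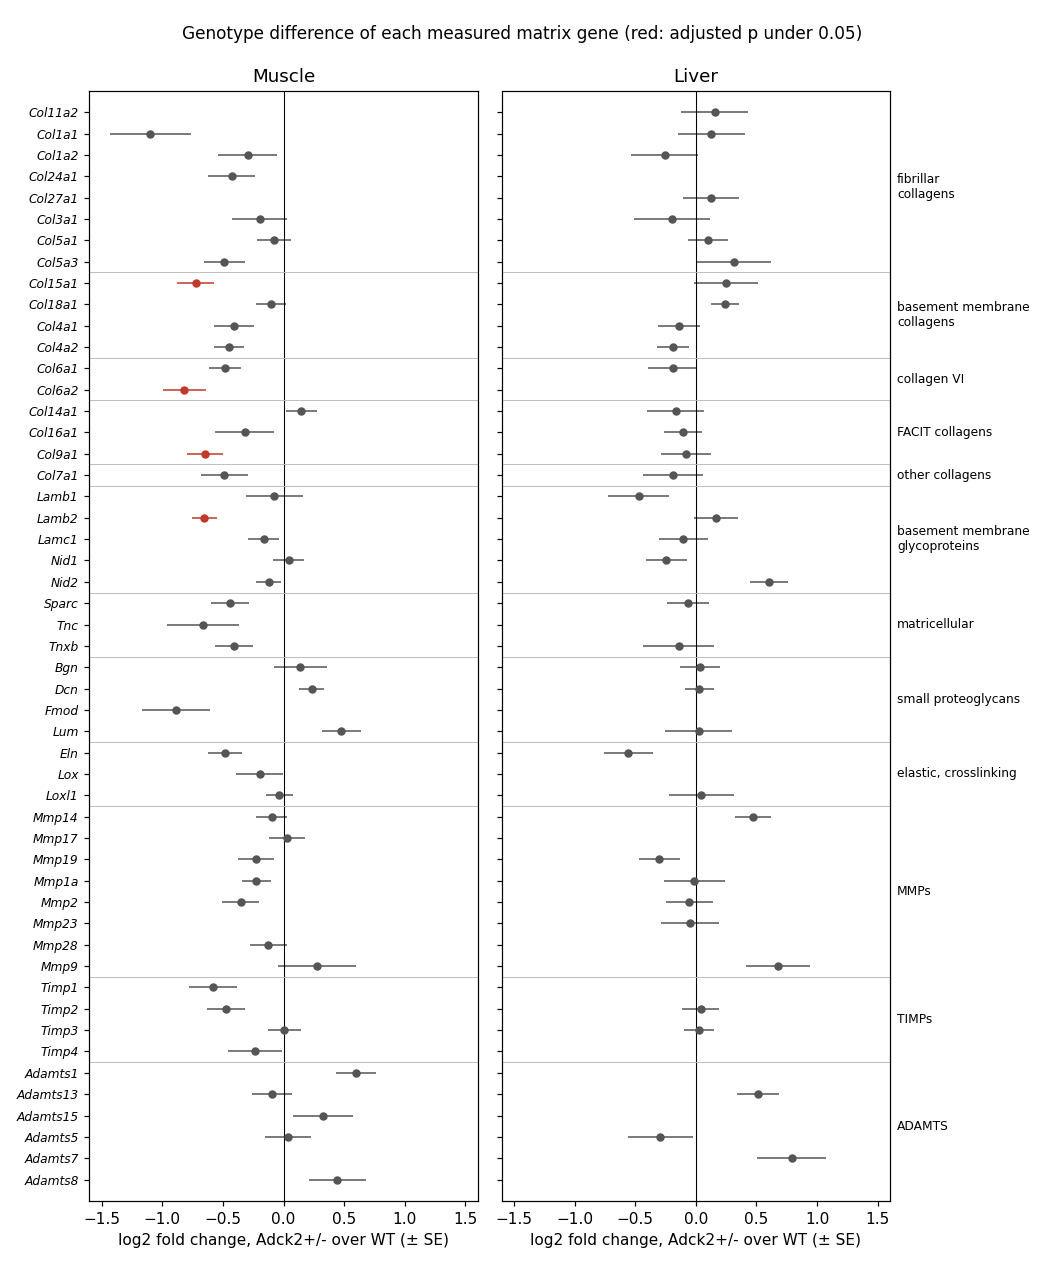
Log2 fold change of each measured matrix gene, Adck2+/- over WT, with its standard error, in muscle (left) and liver (right), grouped by class. The 4 red points in muscle are Lamb2, Col15a1, Col6a2 and Col9a1, and no gene was called in liver.

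Lamb2 encodes the laminin beta 2 chain, which is concentrated in the basement membrane at the neuromuscular junction. Its log2 signal was 9.13, 9.0, 8.73, 8.97 and 9.06 in Adck2+/- muscle, against 9.47, 9.74, 9.63, 9.58 and 9.74 in WT muscle. The highest Adck2+/- value lay below the lowest WT value. The log2 fold change was -0.65 (SE 0.11, adjusted p = 0.0178 in limma). The other measured glycoproteins of the basement membrane did not pass the test. Lamc1, the gamma 1 chain that pairs with Lamb2 in laminins, was at 9.71 ± 0.23 in Adck2+/- muscle and 9.88 ± 0.15 in WT muscle (SD, n = 5 each), and Lamb1, the alternative beta chain, had a log2 fold change of -0.08 (SE 0.23). The nidogens Nid1 and Nid2, which bridge laminin and collagen IV, had log2 fold changes of 0.04 (SE 0.13) and -0.12 (SE 0.11).

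The basement membrane collagens were below 0 in 4 of 4 measured chains on their brightest probes, with a median log2 fold change of -0.43, and Col18a1 had a second probe above 0. Col15a1, whose protein links the basement membrane to collagen fibrils around muscle fibres and capillaries, was at 7.56, 7.79, 7.06, 7.65 and 7.79 in Adck2+/- muscle, against 8.24, 8.31, 8.24, 8.60 and 8.09 in WT muscle. No Adck2+/- value reached a WT value, and the log2 fold change was -0.72 (SE 0.15, adjusted p = 0.0399 in limma). Col4a1 and Col4a2 encode the pair of chains that make up the common form of collagen IV. They lie head to head on the chromosome and are transcribed in opposite directions. Col4a2 was at 10.49, 10.27, 9.90, 10.12 and 9.96 in Adck2+/- muscle, against 10.61, 10.61, 10.47, 10.72 and 10.58 in WT muscle, with a log2 fold change of -0.45 (SE 0.12, adjusted p = 0.0795 in limma). Only the Adck2+/- 1 array overlapped the WT range. Col4a1 had a log2 fold change of -0.41 (SE 0.17, adjusted p = 0.173), and its Adck2+/- 1 array, at 11.69, stood within the WT range of 11.21 to 11.77, while the other 4 Adck2+/- arrays ran from 10.87 to 11.06, below it. Col18a1, the collagen that carries the endostatin fragment, had a log2 fold change of -0.10 (SE 0.12) and was highest on Adck2+/- 4 (9.28). Its second, dimmer probe had a log2 fold change of 0.16 (SE 0.18), so the probes differed in sign and neither passed the test. Of 6 hepatocyte markers on the array, 2 were measured in muscle and Alb, Fgb and Tat were never detected there. Their mean log2 level, each marker centred on its mean over the muscle arrays, was also highest on Adck2+/- 4 (1.63). Their summed signal was 177 to 5267 in Adck2+/- muscle and 174 to 2558 in WT muscle, and their part in the Col18a1 value was not tested.

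Collagen VI forms the beaded filaments around muscle fibres, and loss of any of its main chains causes muscle disease in people. Col6a2 was at 7.32, 6.84, 6.57, 6.44 and 6.98 in Adck2+/- muscle, against 8.05, 7.46, 7.68, 7.64 and 7.41 in WT muscle. The groups did not overlap and the log2 fold change was -0.82 (SE 0.18, adjusted p = 0.0414 in limma). Col6a1, which lies close to Col6a2 on the same strand, was at 11.02, 10.92, 10.44, 10.53 and 10.59 in Adck2+/- muscle, against 11.41, 11.11, 11.13, 11.13 and 11.13 in WT muscle. The groups did not overlap there either, and the log2 fold change was -0.48 (SE 0.13, adjusted p = 0.0795). A second Col6a1 probe gave -0.23 (SE 0.16), with Adck2+/- 2 at 10.49, above every WT value on that probe. Over all genes tested, the groups did not overlap in 3.02% on the lower side and 3.22% on the higher side, and among the 47 matrix genes in 5 on the lower side (the 4 called genes and Col6a1) and 1 on the higher side (Lum).

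**Figure D2:**
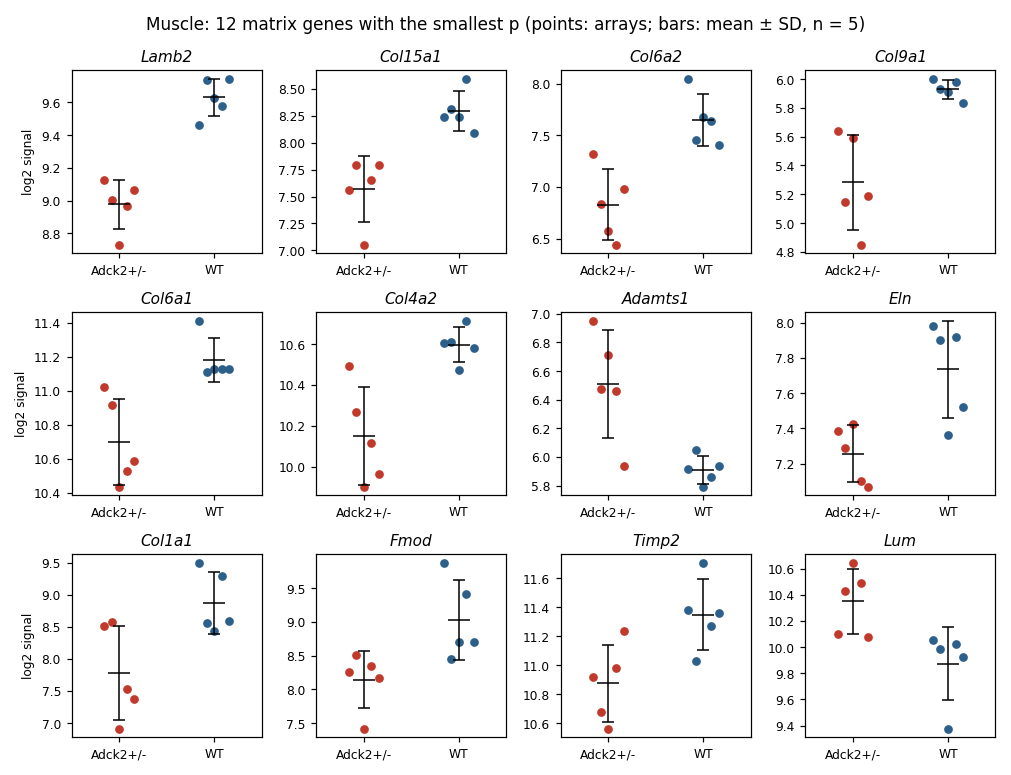
Log2 signal on each muscle array of the 12 matrix genes with the smallest p, Adck2+/- on the left of each panel and WT on the right, with mean and SD (n = 5 each) and its own vertical scale. The Adck2+/- and WT points do not overlap for Lamb2, Col15a1, Col6a2, Col9a1, Col6a1 and Lum.

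Col9a1 encodes a chain of the fibril-associated collagen IX, best known from cartilage. It was at 5.64, 5.15, 5.59, 4.85 and 5.19 in Adck2+/- muscle, against 6.0, 5.93, 5.91, 5.98 and 5.83 in WT muscle. The probe was above detection on 2 of 5 Adck2+/- and 5 of 5 WT arrays, so most Adck2+/- values are at background. The log2 fold change of -0.65 (SE 0.15, adjusted p = 0.0491 in limma) rests on signals just above that level. The other measured fibril-associated chains, Col14a1 and Col16a1, had log2 fold changes of 0.15 (SE 0.13) and -0.32 (SE 0.24).

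The fibrillar collagens were below 0 in 6 of 6 measured chains, with a median log2 fold change of -0.36, and none was called. Col1a1, a chain of the main collagen of tendon, had the lowest fitted fold change of all measured matrix genes. It was at 8.51, 8.58, 6.91, 7.54 and 7.38 in Adck2+/- muscle, against 9.51, 8.57, 8.44, 9.30 and 8.60 in WT muscle. Adck2+/- 1 and 2 lay within the WT range and the other 3 far below it, and the log2 fold change was -1.10 (SE 0.33, adjusted p = 0.0965 in limma). Its partner chain Col1a2 had a log2 fold change of -0.29 (SE 0.24), and Col3a1, the fibrillar collagen of loose connective tissue, had -0.20 (SE 0.22). Col5a3 had -0.49 (SE 0.17, adjusted p = 0.123), Col24a1 -0.43 (SE 0.20) and Col5a1 -0.08 (SE 0.14).

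**Figure D3:**
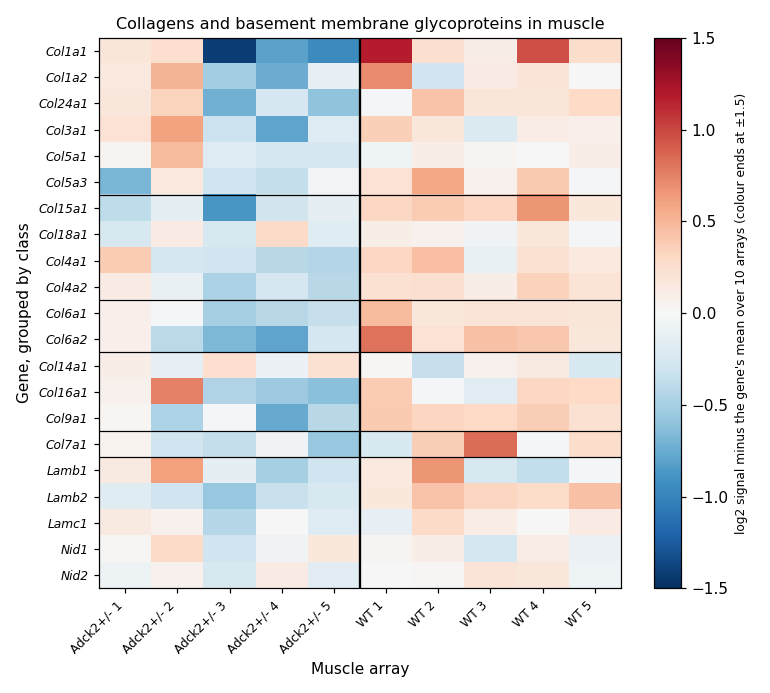
Log2 signal of each measured collagen and basement membrane glycoprotein gene on each muscle array, minus the gene's mean over the 10 arrays, with the 5 Adck2+/- arrays left of the 5 WT arrays and lines between classes. Adck2+/- 3, 4 and 5 are blue in most rows, and Adck2+/- 2 is red in most fibrillar collagen rows.

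The arrays of 1 genotype differed among themselves. The mean of the 6 fibrillar collagens, each centred on its own mean over the 10 arrays, was 0.01, 0.39, -0.58, -0.53 and -0.36 on Adck2+/- arrays 1 to 5, against 0.40, 0.20, 0.05, 0.31 and 0.12 on WT arrays. Adck2+/- 2 was thus at the level of the highest WT array, while Adck2+/- 3, 4 and 5 were below all WT arrays. For the 2 collagen VI chains the same mean was 0.08, -0.21, -0.59, -0.60 and -0.31 on Adck2+/- arrays, against 0.64, 0.19, 0.32, 0.29 and 0.18 on WT arrays, with no overlap. Over all 47 matrix genes it was -0.06, 0.07, -0.23, -0.18 and -0.17 on Adck2+/- arrays, against 0.26, 0.07, 0.01, 0.17 and 0.07 on WT arrays.

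Tendon markers also differed between arrays. Of 6 tendon markers on the array 4 were measured in muscle (Scx, Kera, Chad and Comp), while Tnmd and Mkx were not. All 4 were below 0 and none was called. The summed level of all 6 was 366 to 737 in Adck2+/- muscle and 413 to 1009 in WT muscle. The centred mean of the 6 was -0.161, 0.466, -0.373, -0.168 and -0.182 on Adck2+/- arrays 1 to 5, against 0.604, -0.255, -0.341, 0.332 and 0.079 on WT arrays. Col1a1 was highest on WT 1 and WT 4 among WT arrays and on Adck2+/- 2 among Adck2+/- arrays, and Fmod had the same order at the top. Within each genotype, all arrays had the same order for Col1a1 as for the tendon mean. Across the genotypes the order differed. WT 2 and WT 3 had lower tendon means than Adck2+/- 4 and 5, but higher Col1a1 (8.57 and 8.44, against 7.54 and 7.38). The part of tendon tissue in these differences was not tested. The summed level of 7 fibroblast markers was 2693 to 4473 in Adck2+/- muscle and 2851 to 4561 in WT muscle, with none called.

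Of the 4 small leucine-rich proteoglycans, which bind collagen fibrils, 3 were above 0 in muscle and none was called. Lum, which encodes lumican, was at 10.10, 10.43, 10.65, 10.49 and 10.08 in Adck2+/- muscle, against 10.05, 9.99, 9.38, 10.02 and 9.93 in WT muscle. The lowest Adck2+/- value lay just above the highest WT value, and the log2 fold change was 0.48 (SE 0.16, adjusted p = 0.117 in limma). Dcn, which encodes decorin and is the next gene to Lum on the chromosome, was at 14.13 ± 0.10 in Adck2+/- muscle and 13.90 ± 0.15 in WT muscle (SD, n = 5 each), a log2 fold change of 0.23 (SE 0.10, adjusted p = 0.215). A second Dcn probe was at 12.86, 12.88, 12.89, 12.93 and 12.97 in Adck2+/- muscle, against 12.77, 12.17, 12.32, 12.59 and 12.48 in WT muscle. The groups did not overlap on that probe, whose log2 fold change was 0.44 (SE 0.12, adjusted p = 0.0539 in limma with each probe tested by itself). Bgn, which encodes biglycan, was at 11.11 ± 0.43 in Adck2+/- muscle and 10.97 ± 0.34 in WT muscle (SD, n = 5 each).

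Fmod, the fourth member of the group, encodes fibromodulin of tendon. It was at 8.26, 8.51, 7.42, 8.35 and 8.17 in Adck2+/- muscle, against 9.88, 8.45, 8.70, 9.42 and 8.71 in WT muscle. The ranges met at Adck2+/- 2 and WT 2, and the log2 fold change was -0.89 (SE 0.28, adjusted p = 0.104). Its second probe gave -0.50 (SE 0.34).

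The 3 measured matricellular genes, whose proteins act on cells within the matrix, were all below 0 at an unadjusted p under 0.05, and none was called. Sparc, which encodes a collagen-binding glycoprotein, was at 11.37, 11.42, 10.58, 11.14 and 11.08 in Adck2+/- muscle, against 11.78, 11.47, 11.41, 11.60 and 11.54 in WT muscle, with a log2 fold change of -0.44 (SE 0.16, adjusted p = 0.127 in limma). Only Adck2+/- 2 reached the WT range. Tnc, the tenascin found in tendon and at muscle-tendon junctions, had a log2 fold change of -0.66 (SE 0.30) and Tnxb, the tenascin of connective tissue, had -0.41 (SE 0.15). Second probes gave -0.53 for Tnc and -0.12 for Sparc. Further Tnxb probes gave -0.50 (SE 0.14, adjusted p = 0.0627 in limma with each probe tested by itself) and -0.47 (SE 0.18). The groups did not overlap on the first of these Tnxb probes, and neither passed the test.

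Of the elastic fibre and crosslinking genes, Eln, which encodes elastin, was at 7.39, 7.29, 7.43, 7.11 and 7.07 in Adck2+/- muscle, against 7.98, 7.90, 7.36, 7.92 and 7.52 in WT muscle. The groups overlapped at WT 3, and the log2 fold change was -0.48 (SE 0.14, adjusted p = 0.0922 in limma). The crosslinking oxidases Lox and Loxl1 had log2 fold changes of -0.20 (SE 0.19) and -0.04 (SE 0.11).

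The matrix-cutting enzymes and their inhibitors had no call in muscle. Adamts1, a proteinase that cuts the large proteoglycans, was at 6.95, 6.47, 6.71, 6.46 and 5.94 in Adck2+/- muscle, against 5.91, 6.05, 5.79, 5.86 and 5.94 in WT muscle. Adck2+/- 5 lay within the WT range and the other 4 Adck2+/- arrays above it, and the log2 fold change was 0.60 (SE 0.16, adjusted p = 0.0795 in limma). Of the 5 measured ADAMTS genes 4 were above 0, with a median log2 fold change of 0.33. Of 7 measured MMPs 5 were below 0, and Mmp2, the gelatinase A made by stromal cells, had -0.35 (SE 0.15, adjusted p = 0.197). Mmp14, the membrane-bound MMP that activates Mmp2, had -0.10 (SE 0.13).

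The TIMPs were below 0 in 3 of 4 genes. Timp2, which also takes part in the activation of Mmp2, was at 10.92, 10.68, 10.56, 10.98 and 11.24 in Adck2+/- muscle, against 11.38, 11.03, 11.71, 11.27 and 11.36 in WT muscle, with a log2 fold change of -0.47 (SE 0.15, adjusted p = 0.111 in limma). Adck2+/- 5 alone of its group was above the lowest WT array. Timp3, the inhibitor that binds to the matrix itself, differed between its probes. The brighter probe was at 11.44 ± 0.15 in Adck2+/- muscle and 11.44 ± 0.27 in WT muscle (SD, n = 5 each). The second probe was at 7.88, 8.19, 7.91, 7.90 and 7.85 in Adck2+/- muscle, against 6.91, 7.75, 7.39, 7.22 and 7.21 in WT muscle, a log2 fold change of 0.65 (SE 0.15, adjusted p = 0.0285 in limma with each probe tested by itself). The groups did not overlap on that probe, and which transcripts the 2 probes read was not examined. With each probe tested by itself, 461 of all 11438 probes tested in muscle were called higher and 176 lower.

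The calls in muscle depended on the test and on single arrays. None of the 4 genes was called by the methods' paired t-test after Benjamini-Hochberg adjustment or with the replicate number as a block, and neither fit called any of the 8424 genes. Leaving out 1 array at a time, the number of matrix genes called lower ran from 0 to 5. It was 0 without WT 5, 1 (Lamb2) without WT 1, WT 3, WT 4, Adck2+/- 2, Adck2+/- 3 or Adck2+/- 4, 2 (Lamb2 and Col6a2) without WT 2, 3 (Lamb2, Col6a2 and Col9a1) without Adck2+/- 1 and 5 (the 4 called genes and Timp2) without Adck2+/- 5, where Adamts1 was also called higher. The share of all genes called lower was likewise lowest without WT 5 (0.012%) and highest without Adck2+/- 5 (5.78%, with 222 genes higher). Of 6 adipocyte markers on the array, 4 were measured in muscle and Fabp4 was never detected there. Their mean log2 level, each marker centred on its mean over the 10 muscle arrays, was highest on Adck2+/- 5 (1.47). Their summed signal was 546 to 5310 in Adck2+/- muscle and 280 to 2705 in WT muscle, and the part of fat tissue in these counts was not tested. Lamb2 passed in 23 of 26 alternatives, Col6a2 in 16 of 26, Col15a1 in 14 of 26 and Col9a1 in 8 of 25. These counts include the settings at an unadjusted p under 0.05, in limma and in the methods' paired test. All 4 genes passed both, and a gene called at an adjusted p under 0.05 in limma must pass the limma one. No alternative turned the direction of any of the 4 genes. The background share depended on the scaling: with median scaling in place of quantile normalization 231 genes of all those tested were called lower and 79 higher, against 55 and 104 with quantile normalization, so that 2.74% of all genes fell beside the 3 matrix genes (Lamb2, Col15a1 and Col6a2) that did.

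Among genes that build or sense the matrix without being part of the chosen set, 1 of 15 measured collagen processing enzymes was called. This was Pcolce, which encodes the enhancer of the proteinase that trims procollagen, at 7.40 ± 0.11 in Adck2+/- muscle and 8.04 ± 0.13 in WT muscle (SD, n = 5 each), with a log2 fold change of -0.65 (SE 0.10, adjusted p = 0.0178 in limma). The prolyl hydroxylase P4ha1 and the collagen chaperone Serpinh1 had log2 fold changes of -0.25 (SE 0.15) and -0.25 (SE 0.17), and the list had 8 genes below 0 and 7 above. None of 14 genes of the TGF-beta pathway, a main inducer of collagen genes, was called, and 7 were below 0. Its ligand Tgfb3 had -0.51 (SE 0.15, adjusted p = 0.0922). None of 16 matrix receptors was called. The hyaluronan receptor Cd44 had -0.44 (SE 0.13, adjusted p = 0.1001), and Itgav, an integrin chain, had 0.60 (SE 0.23, adjusted p = 0.149). Of 18 other matrix genes 15 were below 0 and none was called, among them Hspg2, which encodes perlecan, at -0.56 (SE 0.17, adjusted p = 0.0926).

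In liver none of the 39 measured matrix genes was called in either direction, where 0.0118% of all 8484 genes tested were. At an unadjusted p under 0.05, 1 matrix gene was lower and 5 were higher, against 3.67% and 3.37% of all genes. The median log2 fold change of the 39 was -0.01, with 20 below 0 and 19 above. The 16 measured collagens had a median of -0.09 and none was at an unadjusted p under 0.05. With the 3 arrays that stood apart left out, none was called either.

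Nid2, the nidogen with the smallest p in liver, was at 7.55, 7.96, 8.01, 7.62 and 8.07 in Adck2+/- liver, against 7.34, 7.18, 6.80, 7.36 and 7.51 in WT liver. The groups did not overlap, as in 0.695% of all genes on the higher side, and the log2 fold change was 0.60 (SE 0.16, adjusted p = 0.410 in limma). Mmp14 was at 10.72, 10.22, 10.67, 10.56 and 9.99 in Adck2+/- liver, against 9.88, 10.07, 9.93, 9.83 and 10.10 in WT liver, with a log2 fold change of 0.47 (SE 0.15, adjusted p = 0.540). Adck2+/- 5 lay within the WT range and the others above it. The proteinases Adamts7 and Adamts13, of which Adamts13 is the stellate cell enzyme that cuts von Willebrand factor, had log2 fold changes of 0.79 (SE 0.28, adjusted p = 0.598) and 0.51 (SE 0.17, adjusted p = 0.558). Mmp9, the gelatinase B of leukocytes, had 0.68 (SE 0.27, adjusted p = 0.613), with its probe detected on 5 of 5 Adck2+/- and 3 of 5 WT arrays.

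**Figure D4:**
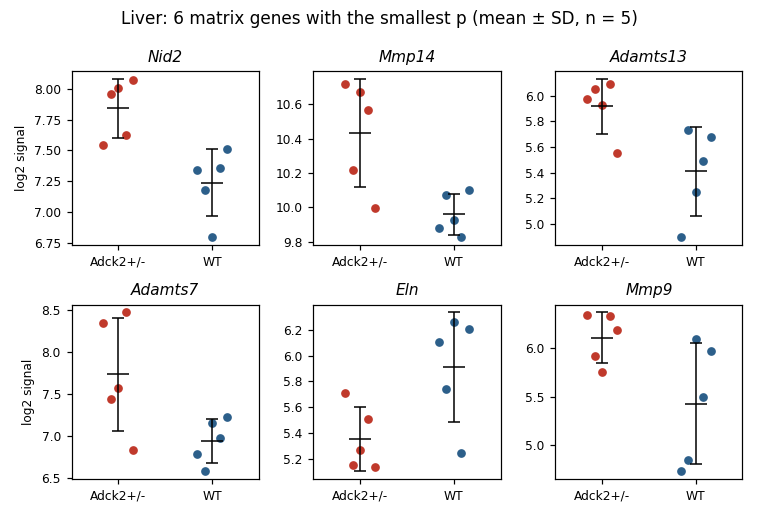
Log2 signal on each liver array of the 6 matrix genes with the smallest p, Adck2+/- on the left of each panel and WT on the right, with mean and SD (n = 5 each) and its own vertical scale. None passed the adjusted test, and only the points of Nid2 do not overlap.

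Eln was the 1 matrix gene lower at an unadjusted p under 0.05 in liver, at 5.71, 5.15, 5.27, 5.51 and 5.14 in Adck2+/- liver and 6.10, 5.74, 6.26, 5.25 and 6.21 in WT liver (log2 fold change -0.56, SE 0.20, adjusted p = 0.598 in limma). It was detected on 2 of 5 Adck2+/- and 4 of 5 WT arrays. Of the 4 genes called in muscle, 3 were measured in liver and none of them was called there. Lamb2 was at 7.08, 6.50, 6.59, 7.04 and 6.49 in Adck2+/- liver, against 6.49, 6.37, 7.12, 6.35 and 6.53 in WT liver, a log2 fold change of 0.16 (SE 0.18). Col15a1 had 0.25 (SE 0.26), Col9a1 had -0.08 (SE 0.21) and Col6a2 was detected on 3 of 10 liver arrays, too few to be tested. Col18a1 was at 14.34 ± 0.13 in Adck2+/- liver and 14.10 ± 0.15 in WT liver (SD, n = 5 each), a log2 fold change of 0.24 (SE 0.11, adjusted p = 0.712). The laminin chain Lamb1 had -0.47 (SE 0.25), Mmp19 -0.30 (SE 0.17), Nid1 -0.24 (SE 0.17), Col4a2 -0.19 (SE 0.13) and the aggrecan-cutting Adamts5 -0.29 (SE 0.27). Dcn was at 13.81 ± 0.21 in Adck2+/- liver and 13.78 ± 0.11 in WT liver, Bgn at 11.89 ± 0.30 in Adck2+/- liver and 11.86 ± 0.23 in WT liver, Sparc at 9.83 ± 0.33 in Adck2+/- liver and 9.89 ± 0.22 in WT liver, and Timp3 at 9.71 ± 0.19 in Adck2+/- liver and 9.69 ± 0.15 in WT liver (SD, n = 5 each). A second Dcn probe had a log2 fold change of -0.13 (SE 0.31) in liver, opposite in sign to the brighter one. None of the genes named in this paragraph passed the test in liver.

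The difference between the genotype effects was tested in a fit of all 20 arrays, normalized together, as the effect in muscle minus the effect in liver. None of the 35 matrix genes measured in both tissues was called, against 0.0409% of 7339 genes. At an unadjusted p under 0.05, 10 were, all with a lower effect in muscle, and 9.93% of all genes were on that side. For Nid2, Mmp14, Adamts13 and Col18a1 the effect fitted by tissue was wider in liver than in muscle. It was 0.60, 0.47, 0.51 and 0.24 in liver and -0.12, -0.10, -0.10 and -0.10 in muscle. For the rest of the 10 it was wider in muscle. Lamb2 had the smallest p, with a difference of -0.82 on the log2 scale (SE 0.21, adjusted p = 0.139 in limma). Nid2 followed with -0.72 (SE 0.19, adjusted p = 0.147) and Col15a1 with -0.99 (SE 0.31, adjusted p = 0.195). Col1a1 had the widest fitted difference, -1.24 (SE 0.46, adjusted p = 0.234). An effect confined to muscle was therefore not shown for any single matrix gene.

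WT muscle was set against WT liver over probes detected on 5 or more of all 20 arrays, which let in 53 matrix genes, among them Col9a2 and Mmp13, which were measured in neither tissue by itself. Of the 35 matrix genes whose probe was measured in both tissues, 27 were higher in WT muscle than in WT liver and 4 were lower, where 40.9% and 34.7% of the 7320 such genes were. The median log2 difference of these 35 was 2.04, against 0.10 over the 7320. They held all 5 basement membrane glycoproteins tested, each higher in muscle. Of their 5 MMPs, Mmp2 and Mmp9 were higher in muscle, Mmp14 was lower, and Mmp19 and Mmp1a were not called. Another 12 matrix genes were measured in muscle only, and 10 of them were higher there. A further 4 were measured in liver only, and 2 of them were higher there. These 16 entered through the detection in 1 tissue, which favours a difference towards that tissue, so their counts are a description only. Over all 53 the calls were 37 higher and 6 lower, against 40.1% and 35.8% of all 9841 genes tested.

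Timp4, an inhibitor known from heart and skeletal muscle, was at 10.81 ± 0.42 in WT muscle and 4.77 ± 0.12 in WT liver (SD, n = 5 each), where it was not detected on any array, so that it was at least 43.2-fold higher in muscle (adjusted p = 4.17e-18 in limma). Such a bound sets the mean of the bright tissue against the lowest signal that counted as detected on the arrays of the other. Col24a1, a minor fibrillar collagen, was not detected in liver either and was at least 7.65-fold higher in muscle, at 8.32 ± 0.17 in WT muscle and 4.74 ± 0.10 in WT liver (SD, n = 5 each). Col1a1 and Lox were each detected on 1 of 5 WT liver arrays and Fmod on 3 of 5, so their differences are given as bounds too, with a liver value below the lowest detected signal of its array set at that signal. Fmod was at least 12.2-fold, Col1a1 at least 11.1-fold and Lox at least 9.76-fold higher in muscle. Mmp2 was higher in muscle by 3.60 (SE 0.18) on the log2 scale. Lamb2 was higher in muscle by 3.31 (SE 0.15), at 9.80 ± 0.12 in WT muscle and 6.48 ± 0.31 in WT liver (SD, n = 5 each).

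The other 6 called matrix genes were higher in liver. Col18a1, the collagen that hepatocytes make, was at 9.20 ± 0.08 in WT muscle and 13.83 ± 0.16 in WT liver (SD, n = 5 each), a difference of -4.63 (SE 0.12, adjusted p = 2.73e-19 in limma), or 24.8-fold higher in liver. Col27a1, a fibrillar collagen known from cartilage, was at 4.69 ± 0.13 in WT muscle, where no array detected it, and 8.26 ± 0.43 in WT liver (SD, n = 5 each), at least 7.5-fold higher in liver. Adamts7 was likewise not detected in WT muscle and was at least 2.82-fold higher in liver. Col14a1, a fibril-associated collagen, had a fitted difference of -1.77 (SE 0.19). It was detected on 3 of 5 WT muscle arrays, so its bound is at least 3.18-fold higher in liver. Mmp14 differed by -0.62 (SE 0.14) and Bgn by -0.50 (SE 0.20, adjusted p = 0.0312 in limma). Bgn lost its call in 5 alternatives: with the replicate number as a block (adjusted p = 0.0508), without WT liver 3 or 5 and without WT muscle 2 or 3 (adjusted p between 0.0529 and 0.104). The same contrast between Adck2+/- tissues was -4.98 for Col18a1 and -0.38 for Bgn (adjusted p = 0.0912).

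**Figure D5:**
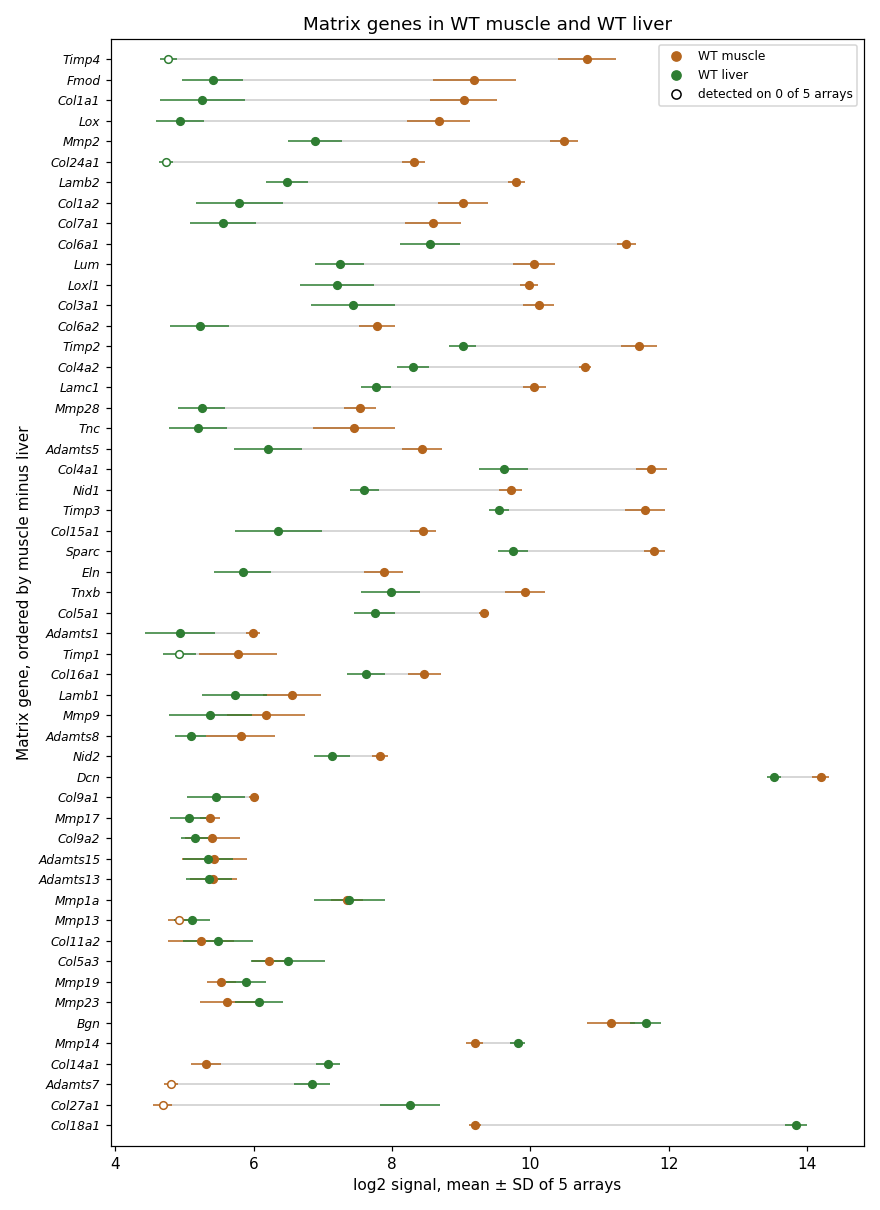
Log2 signal of the 53 matrix genes tested between tissues, mean and SD of 5 arrays, in WT muscle (brown) and WT liver (green), ordered by the difference. Open circles mark genes detected on 0 of 5 arrays of that group, and 37 genes are higher in muscle and 6 in liver.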

How the data were processed

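RNA of muscle and liver was measured on 20 Illumina mouse bead arrays. The intensity values, deposited by the authors, are the mean signal of each probe on a linear scale, not normalized between arrays. Each signal has a deposited detection p-value, taken against negative-control beads. How the background was treated is not given in the sources used here. The study's methods name another maker's array, and the labels and probe names were followed. A second deposited table of intensity values, with 2165 entries that hold another probe's signal, 2 of them member probes (of Col4a6), served only as an alternative. Its columns and those of the first table were all assigned to samples, with 0 left over.

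Groups came from the labels. The members and the gene lists were chosen with earlier results of these data known. Probe symbols came from the platform annotation, in which 23978 probes have 1 symbol and 1719 have none.

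Within a tissue, background was corrected by way of the detection p-values (neqc with an offset of 16), followed by quantile normalization and a log2 transform (limma 3.58.1 in R 4.3.3; Python 3.11.15 and matplotlib 3.10.9 for figures). A probe entered the genotype tests when 5 or more of 10 arrays of the tissue had a detection p under 0.05 (in both tissues for the comparison of the genotype effects, and 5 or more of all 20 arrays for WT muscle against WT liver), and a gene with several such probes was represented by the brightest. Genotypes were compared in each tissue with lmFit and eBayes, with Benjamini-Hochberg adjustment across every gene tested. The comparison of the genotype effects and that of WT muscle with WT liver used all 20 arrays, normalized together and taken as independent. The study's methods state a paired t-test, which was run as an alternative. Signals of different probes were ranked only to choose the genes to name. Genes were named by rule: in each tissue the called members and the next by p up to 12, the 6 with the highest mean signal, and the 6 with the widest tissue difference each way, with further members given to complete a class. The number of arrays limits the precision. The steps were tested on simulated data.

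Promoter sequences are from RefSeq (GRCm38.p6), of which 66 of the 93 genes had a window. Alternatives covered background, offset, scaling, filter, choice of probe, value table, model, threshold and each array left out in turn. Arrays that stood apart were also left out together in each tissue, and those of muscle were chosen after the data were seen.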

Additional observations from a re-analysis of the deposited data

Results flagged for a closer look

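In 5 of the 70 groups of 5 arrays examined, 1 array lay far from the other 4, and chance gives this in about 1 group in 20. In muscle these were Col6a1 on WT 1 (11.41, with the nearest array at 11.13), Col4a1 on Adck2+/- 1 (11.69, nearest 11.06) and Lum on WT 3 (9.38, nearest 9.93). In liver they were Nid1 on Adck2+/- 3 (8.06, nearest 7.43) and Timp3 on WT 3 (9.95, nearest 9.67).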

How the results depend on the processing

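In muscle, 4 matrix genes were called lower and 0 higher. The number called lower was 1 without a filter on detection, 0 by the methods' paired t-test after Benjamini-Hochberg adjustment, 7 with all 20 arrays fitted together, 11 (and 2 higher) by the paired t-test at an unadjusted p under 0.05 and 18 (and 3 higher) at an unadjusted p under 0.05 in limma. The share of all genes called lower also moved, from 0.653% to 0.108% without a filter and 4.24% with all 20 arrays. It was 9.12% by the unadjusted paired t-test, with 645 genes higher, and 13.7% in unadjusted limma, with 724 higher. 1 gene was called higher with each probe tested by itself (Timp3), with array weights (Adamts1) and without WT 2 and Adck2+/- 5 (Adamts1). The last of these was added after the data were seen. WT 2 and Adck2+/- 5 lay at 4.76 and -9.62 on the first principal component of muscle. The other WT arrays lay from -25.9 to -11 and the other Adck2+/- arrays from -2.31 to 27.8. Leaving out 1 array gave 0 to 5 lower and 0 to 1 higher, where 0.012% to 5.78% of all genes were lower. The median log2 fold change was -0.22, -0.091 without a filter and -0.28 to -0.18 with 1 array left out. The unfiltered setting tested 93 matrix genes in place of 47, most of the added ones at background. In liver no alternative with adjusted p-values called a matrix gene; at an unadjusted p under 0.05, limma gave 1 lower and 5 higher and the paired t-test 1 lower and 2 higher. No called gene changed direction in any alternative, and the liver median ran from -0.06 to 0.07 with 1 array left out. The interaction called 0 matrix genes in all alternatives, and WT muscle against WT liver gave 5 to 7 lower and 36 to 38 higher with 1 array left out.

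Over all genes in muscle the calls numbered 159, 310 with median scaling, 70 without a filter, 637 with each probe tested by itself, 315 with the mean of the probes, 354 with array weights, 497 with 20 arrays together, 0 by the paired t-test after adjustment, 14 (without WT 5) to 703 (without Adck2+/- 5) with 1 array left out and 727 without WT 2 and Adck2+/- 5. In liver they numbered 1, and 0 to 9 under the alternatives with adjusted p-values. The interaction called 3 genes, and 0 to 14 in alternatives other than that without muscle Adck2+/- 5, which called 129. In liver, median scaling moved the median of all genes to 0.16, against 0.01, and that of the matrix genes to 0.11, against -0.01. The sources used here do not say whether equal replicate numbers pair mice, and they were not taken to: same-numbered arrays deviated together (correlation over 0.1) in 1 of 5 pairs in each tissue. With the replicate block, 0 matrix genes and 0 genes in all were called in muscle, 0 matrix genes in liver and in the interaction, and 6 lower and 37 higher between WT tissues. Genes near the detection limit, such as muscle Col9a1, muscle Timp1 and liver Eln, were not detected on every array of the tissue, so part of their values are at background.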
